A study of Mus musculus with 15 samples.

Results

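The subunit genes of 3 chromatin complexes, NuRD, BAF and PAF1, were examined together with Phf6, the deleted gene, in E15.5 mouse cortex and in cultured E16.5 cortical neurons. The members were Phf6 and a list of 47 subunit genes, 15 of NuRD, 26 of BAF and 6 of PAF1, and all 48 were found by Entrez gene identifier among the 23128 genes kept from the count table. The cortices were Phf6 +/Y (n = 3) and Phf6 -/Y (n = 5), the latter carrying a germline deletion. The neurons, cultured for a day after dissociation of the cortex, were Phf6 +/Y NesCre T/+ (n = 3) and Phf6 lox/Y NesCre T/+ (n = 4), so that control and deleted cultures both carried the NesCre transgene, in which Nestin elements drive Cre in progenitors of the nervous system. All 15 samples came from male C57BL/6 foetuses, the cortices from litters 1 to 3 and the cultures from litters 4 to 7, litter 7 holding a single deleted culture and no control. Each library held between 16858007 and 31157700 counted reads.

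NuRD is a repressor that joins a nucleosome remodelling ATPase of the CHD family to the histone deacetylases HDAC1 and HDAC2. BAF, the mammalian SWI/SNF complex, is an ATP-driven remodeller that opens chromatin, and it exchanges some of its subunits for paralogues when neural progenitors become postmitotic neurons: BAF53A gives way to BAF53B, SS18 to CREST and the progenitor BAF45 proteins to their neuronal relatives. The PAF1 complex travels with elongating RNA polymerase II and is needed for ubiquitination of histone H2B. PHF6 is a chromatin-associated protein with atypical plant homeodomain fingers that has been found bound to NuRD and PAF1 subunits, and variants of its gene cause Börjeson-Forssman-Lehmann syndrome.

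The allele removes exons 4 and 5 of Phf6 by recombination of loxP sites. Their sequences are shown because every comparison by genotype rests on this deletion. Exons are numbered as in the GENCODE transcript of 11 exons, with coordinates on GRCm38, and the positions of the loxP sites were not used here. Both exons are wholly coding.
Phf6 exon 4, chrX:52931573-52931706, plus strand: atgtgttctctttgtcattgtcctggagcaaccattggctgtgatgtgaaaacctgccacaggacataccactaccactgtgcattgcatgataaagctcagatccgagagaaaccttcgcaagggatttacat
Phf6 exon 5, chrX:52931981-52932024, plus strand: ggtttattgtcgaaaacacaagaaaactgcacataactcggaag
Together they hold 178 bases, which is 4.09% of the 4350 bases of the transcript and 16.3% of its coding length, and 178 leaves a remainder of 1 when divided by 3.

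The 6 promoters shown belong to the SS18, BAF53, BAF45 and ATPase positions of the BAF complex, each of which has paralogues. They are from RefSeq (GRCm38.p6) and run from 250 bases before to 50 bases after a start site of the gene. For Smarca2, Smarca4 and Actl6b that site lies inside the annotated span of the gene and not at its first base. Capitals mark GGGCGG, the GC box bound by SP factors, CCAAT, and CCGGAAG, an ETS-type site, on either strand, with overlapping matches run together.
Ss18l1 promoter, chr2:180042233-180042532, plus strand: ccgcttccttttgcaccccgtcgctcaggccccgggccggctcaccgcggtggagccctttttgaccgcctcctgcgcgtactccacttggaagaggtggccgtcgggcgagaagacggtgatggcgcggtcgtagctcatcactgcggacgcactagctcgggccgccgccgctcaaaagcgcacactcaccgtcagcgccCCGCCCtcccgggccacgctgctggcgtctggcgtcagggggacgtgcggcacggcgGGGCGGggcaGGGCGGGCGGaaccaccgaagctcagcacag
Smarca2 promoter, chr19:26604910-26605209, plus strand: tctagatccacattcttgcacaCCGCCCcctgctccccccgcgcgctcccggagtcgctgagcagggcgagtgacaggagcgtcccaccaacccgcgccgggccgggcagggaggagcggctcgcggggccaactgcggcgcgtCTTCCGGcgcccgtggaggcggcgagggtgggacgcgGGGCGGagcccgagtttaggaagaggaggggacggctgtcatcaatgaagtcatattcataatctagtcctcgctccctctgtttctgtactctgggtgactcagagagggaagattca
Smarca4 promoter, chr9:21615919-21616218, plus strand: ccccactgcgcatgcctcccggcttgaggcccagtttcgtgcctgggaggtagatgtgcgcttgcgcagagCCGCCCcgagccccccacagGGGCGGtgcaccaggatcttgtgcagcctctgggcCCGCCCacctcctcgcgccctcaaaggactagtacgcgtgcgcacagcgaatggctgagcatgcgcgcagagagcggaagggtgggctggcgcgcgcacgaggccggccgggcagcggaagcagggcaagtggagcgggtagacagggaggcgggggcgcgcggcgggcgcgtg
Actl6a promoter, chr3:32708296-32708595, plus strand: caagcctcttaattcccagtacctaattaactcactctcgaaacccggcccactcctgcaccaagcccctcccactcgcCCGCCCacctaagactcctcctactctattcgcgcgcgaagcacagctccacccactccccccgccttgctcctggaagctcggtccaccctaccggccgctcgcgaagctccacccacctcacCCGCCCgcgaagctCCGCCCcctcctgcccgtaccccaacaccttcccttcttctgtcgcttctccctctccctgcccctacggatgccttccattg
Actl6b promoter, chr5:137553296-137553595, plus strand: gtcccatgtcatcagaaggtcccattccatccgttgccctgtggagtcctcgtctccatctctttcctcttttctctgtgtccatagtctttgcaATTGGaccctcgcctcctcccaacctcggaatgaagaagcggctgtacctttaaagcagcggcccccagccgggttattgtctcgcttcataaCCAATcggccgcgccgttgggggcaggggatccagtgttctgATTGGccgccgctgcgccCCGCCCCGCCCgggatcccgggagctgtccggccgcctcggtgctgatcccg
Dpf2 promoter, chr19:5912822-5913121, minus strand: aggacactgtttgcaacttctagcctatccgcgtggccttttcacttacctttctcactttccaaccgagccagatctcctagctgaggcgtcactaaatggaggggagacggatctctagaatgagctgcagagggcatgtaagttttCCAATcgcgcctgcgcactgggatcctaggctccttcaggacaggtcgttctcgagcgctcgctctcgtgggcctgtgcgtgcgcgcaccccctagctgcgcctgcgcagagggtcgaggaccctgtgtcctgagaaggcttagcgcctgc
Of the 48 members, 37 had promoters in the RefSeq table, 43 in all, and Phf6, Chd3, Hdac1, Mta3, Mbd2, Ctr9, Wdr61, Smarce1, Arid2, Bcl7a and Ss18 had no entry. GGGCGG was present in 97.7% of the members' promoters, in 60.6% of the promoters of genes tested and in 35.7% of all 32851 promoters of this length. Of the promoters shown, that of Dpf2 alone held no GC box. CCAAT was present in 32.6% of the members' promoters and in 37.4% of those of genes tested, and CCGGAAG in 16.3% and 15.3%. Over all promoters the shares were 37.4% and 8.86%. The median GC content of the members' promoters was 69.7%, against 60.3% over genes tested. These matches describe letters in a window, and binding was not measured.

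The levels of marker genes showed what the samples contained. Summed over 8 neuronal markers (Tubb3, Dcx, Snap25 and others), the level was 1897 to 1977 RPKM (counts per kilobase of exon, scaled to library size) in control cortices and 2794 to 2877 RPKM in control cultures. The 8 radial glia markers, among them Pax6 and Sox2, summed to 1039 to 1111 RPKM in control cortices and to 261 to 394 RPKM in control cultures. For the 8 genes of dividing cells the sums were 337 to 415 RPKM and 112 to 163 RPKM. The cultures were thus richer in neuronal RNA and poorer in that of progenitors. Endothelial genes summed to 51.1 to 63.9 RPKM in control cortices and 0.789 to 0.883 RPKM in control cultures, with Cdh5, Cldn5 and Tek under 10 counts in every control culture. Markers of choroid plexus ranged from 0.807 to 368 RPKM among control cortices and from 1.52 to 256 RPKM among Phf6 -/Y cortices. The Phf6 -/Y cortex called replicate 1 had the lowest sum of 6 dorsal telencephalon markers, 461 RPKM, where the other 4 ranged from 637 to 752 RPKM. Of the markers tested by genotype, none of 79 passed in cortex with edgeR, DESeq2 or limma-trend, where 13, 14 and 13 had an unadjusted p below 0.05. Ttr of the choroid plexus, higher in deleted cultures, was the 1 of 69 that passed in neurons, where 16, 9 and 16 had an unadjusted p below 0.05. With edgeR, 10.4% of all genes in cortex and 10.3% in neurons reached that p, smaller shares than those of the markers. Of all genes, 0.387% in cortex and 0.273% in neurons passed. No gene of radial glia, intermediate progenitors or dividing cells passed in neurons, and the medians of their log2 differences, deleted against control, were -0.13, -0.23 and -0.15. Their part in the neuron results by genotype was not tested. In bulk samples, fewer cells of a type and less RNA per cell cannot be told apart.

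Phf6 was read in every library first, over the whole gene (chromosome X, 52912214 to 52956961, GRCm38). In cortex it was at 40.6, 34.3 and 43.8 RPKM in the controls and at 9.76, 12.1, 10.8, 9.76 and 12.7 RPKM in Phf6 -/Y samples. In neurons it was at 59.6, 52.4 and 58.4 RPKM in the controls and at 16.46, 19.7, 13.8 and 15.0 RPKM in the deleted cultures. All deleted libraries lay below every control of their tissue, and the deleted means were 27.9% of the control mean in cortex and 28.6% in neurons. The fitted log2 fold change was -1.86 (SE 0.10, FDR = 1.04e-05) in cortex and -1.82 (SE 0.07, FDR = 5.24e-09) in neurons, both fitted over all genes with edgeR and a litter effect. Within litters 1, 2 and 3 the log2 difference was -1.98, -1.58 and -2.06, and within litters 4, 5 and 6 it was -1.59, -1.93 and -1.96. The remaining reads cannot be assigned to exons, because the table holds a single count per gene.

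The 3 complexes were expressed at different levels, and many members differed between the tissues, as given below. Among all members, Hdac2 had the highest mean over the groups, 254 RPKM, followed by Chd3, the CHD-family ATPase, at 177 RPKM and Smarcc2, a BAF scaffold, at 135 RPKM. The lowest were Dpf3, a BAF45 paralogue, at 5.71 RPKM and Smarcd2, a BAF60 paralogue, at 7.85 RPKM. The 6 PAF1 genes lay close together, from 14.9 RPKM for Cdc73, which encodes parafibromin, to 45.5 RPKM for Paf1. Hdac2 and Chd3 were the highest 2 in control cortex and in control neurons alike. The spans of 10 members, introns included, overlap a coding gene on the opposite strand, and overlap of their exons was not examined. Where exons overlap, reads of the 2 genes cannot be told apart without strand. The strand setting of the counting was not given in the sources used here. The 10 members are Rbbp4, Rbbp7, Cdc73, Wdr61, Pbrm1, Smarcc1, Smarcd1, Smarcd3, Phf10 and Actl6a. For 8 members, copies of at least 95% identity over 300 bases or more are annotated elsewhere in the genome, which makes their reads uncertain. They are Actl6a, Bcl7c, Cdk2ap1, Hdac1, Rbbp7, Smarcc1, Smarce1 and Ss18. Counts behind these levels were high for most members, the lowest in any library being 104 reads, for Dpf3.

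Summed over its 15 genes, NuRD was at 1170.1, 1113 and 1096 RPKM in control cortices and at 1062, 1035, 1082, 1049 and 1044 RPKM in Phf6 -/Y cortices. The 5 deleted cortices all lay below the 3 controls, with a ratio of the means of 0.936. In neurons the NuRD sum was 1082, 1100.3 and 1081 RPKM in controls and 1116, 1055, 1044 and 1044 RPKM in deleted cultures, and the groups overlapped. The BAF sum was 1484 ± 49.8 RPKM (SD, n = 3) in control and 1444 ± 37.0 RPKM (SD, n = 5) in Phf6 -/Y cortex, and 1357 ± 27.4 (SD, n = 3) and 1374 ± 44.1 RPKM (SD, n = 4) in control and deleted neurons. All 7 cultures were below every control cortex in BAF. The PAF1 sum stayed between 189.8 and 219 RPKM in all 15 libraries. No test was made on sums over genes chosen with results known.

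**Figure D1:**
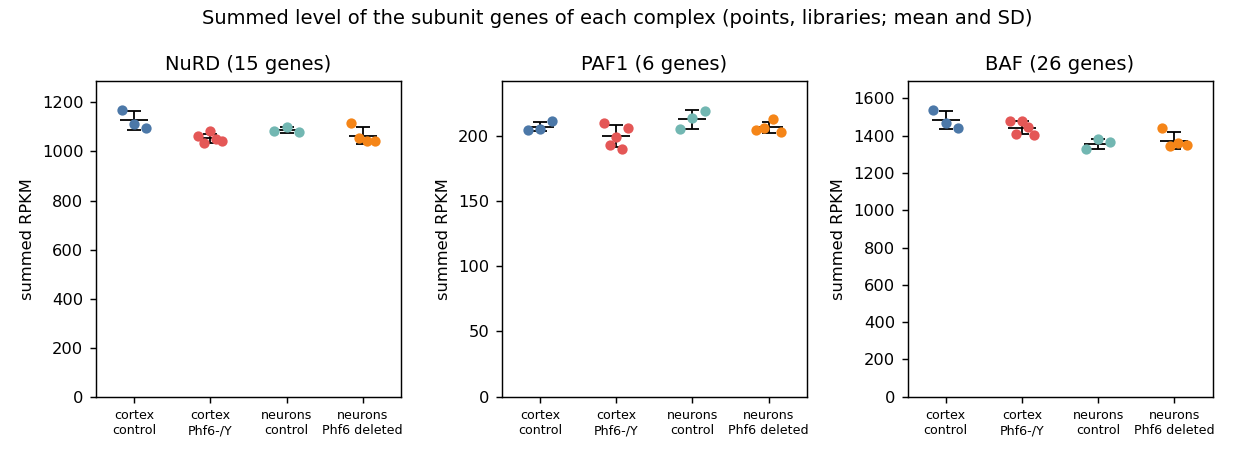
Summed RPKM (vertical axis, from 0) of the 15 NuRD, 6 PAF1 and 26 BAF genes in each library, by group (horizontal axis), with the mean and SD as bars. The NuRD points of Phf6 -/Y cortex sit below those of control cortex, and the BAF points of neurons sit below those of control cortex.

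The comparison by genotype asked whether the RNA of these complexes differs when PHF6 is lost. In cortex 0.387% of 14746 genes passed a false discovery rate (FDR) of 0.05, with 0.0678% of all genes lower in deleted samples, and Phf6 was the 1 member of 48 that did. In neurons 0.273% of 13905 genes passed, with 0.0791% lower, and Phf6 was again the 1 member. None of the 47 subunits passed in either tissue with edgeR, DESeq2 or limma-trend. An unadjusted p below 0.05 was reached by 4 of 47 subunits in cortex, 3 lower and 1 higher, where 10.4% of all genes reached it, 4.76% lower and 5.68% higher. In neurons it was reached by 4 of 47, all lower, where 10.3% of all genes did, 4.46% lower and 5.86% higher. By limma-trend 4 subunits reached it in each tissue, and by DESeq2 4 in cortex and 1 in neurons. Groups did not overlap for 2 of 47 subunits in cortex and 2 of 47 in neurons, all lower in deleted samples, where lower values without overlap were found in 2.51% of all genes in cortex and 3.48% in neurons. No subunit was higher without overlap, where 2.49% and 3.57% of all genes were. The 95% intervals of the fitted differences lay within 0.5 log2 units of 0 for 45 of 47 subunits in cortex and for 45 of 47 in neurons. They lay within 0.3 log2 units for 38 of 47 in cortex and 39 of 47 in neurons, so smaller differences are not excluded.

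**Figure D2:**
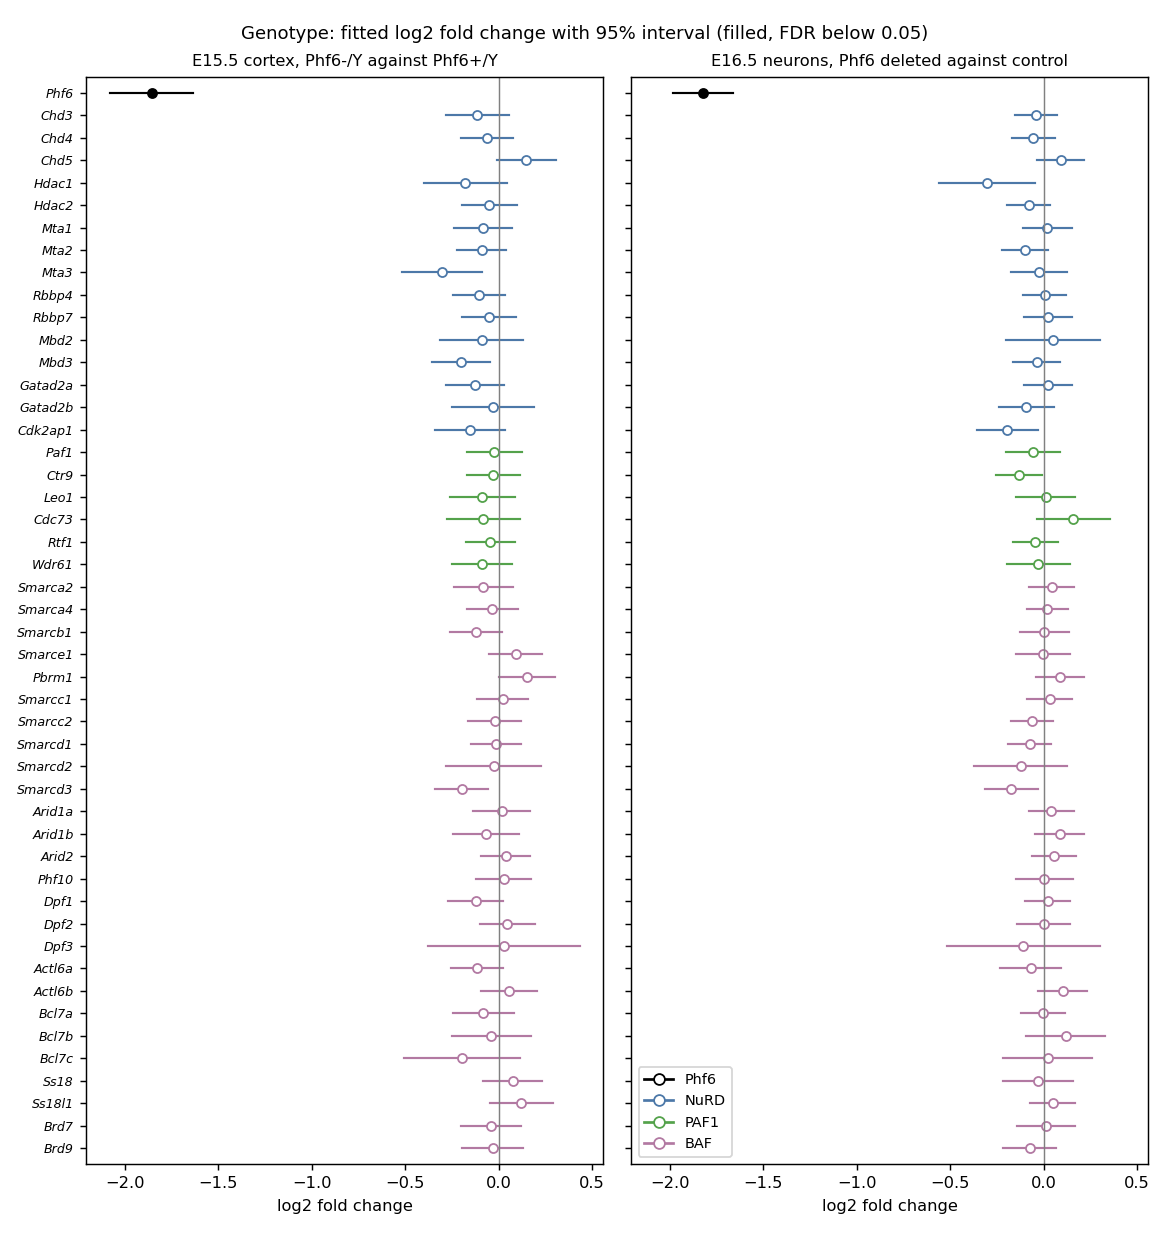
Fitted log2 fold change (horizontal axis) of the 48 members with 95% intervals as lines, in cortex (left) and neurons (right), coloured by complex and filled where the FDR was below 0.05. Phf6 is the filled point in each panel, and the 47 subunits are open and lie near 0.

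The NuRD genes lay mostly below 0 in cortex. In Phf6 -/Y cortex, 14 of 15 had a fitted difference below 0, with a median of -0.09 on the log2 scale, where 50.6% of all genes lay below 0. None passed. The exception was Chd5, a neuronal CHD ATPase, at 0.15 (SE 0.07, FDR = 0.519). In neurons 9 of 15 were below 0, with a median of -0.04, where 49.7% of all genes were below 0. The cortex medians of 6 lists of related chromatin genes, counted below, were also under 0, from -0.08 for SIN3-HDAC to -0.02 for ISWI.

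Mta3, a scaffold subunit of the MTA family, had the lowest p of the NuRD genes in cortex. It was at 11.7, 12.03 and 12.6 RPKM in controls and 8.12, 10.6, 11.96, 10.8 and 9.23 RPKM in Phf6 -/Y samples. The groups overlapped, with replicate 1 lowest. The log2 fold change was -0.31 (SE 0.10, FDR = 0.280), and in neurons it was -0.02 (SE 0.07, FDR = 0.947). Within litters 1, 2 and 3 the log2 difference was -0.34, -0.10 and -0.53, the farthest from 0 in litter 3, which holds replicate 1. Without that library, which had the lowest dorsal telencephalon markers, the log2 fold change of Mta3 was -0.21 with an FDR of 0.630. Litter was in the fit, so leaving that library out also took control replicate 1, the other sample of litter 3, out of the genotype estimate. The fit thus cannot tell that library from its litter. The part of those markers in the difference was not tested.

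Mbd3, the methyl-CpG-binding domain subunit, was at 137, 116 and 115 RPKM in control cortices and 111, 100.0, 111, 109 and 94.3 RPKM in Phf6 -/Y cortices. These groups did not overlap. The log2 fold change was -0.20 (SE 0.07, FDR = 0.324) in cortex and -0.04 (SE 0.06, FDR = 0.891) in neurons. Hdac1, a deacetylase, had the lowest p of NuRD in neurons. It was at 11.3, 10.1 and 8.30 RPKM in control and 7.37, 8.33, 7.91 and 7.68 RPKM in deleted cultures, the highest deleted value lying just above the lowest control, and the log2 fold change was -0.30 (SE 0.12, FDR = 0.383). In cortex its log2 fold change was -0.18 (SE 0.10, FDR = 0.584). Cdk2ap1, a small NuRD subunit, was at 58.6, 55.2 and 45.8 RPKM in control and 54.4, 49.2, 44.6 and 45.1 RPKM in deleted cultures, a log2 fold change of -0.19 (SE 0.08, FDR = 0.384). Its groups overlapped, and litter 6 was nearly level at -0.02. Without control replicate 3, the lowest control, and so without litter 6 in the genotype estimate, Cdk2ap1 passed at -0.28 (FDR = 0.0348, edgeR). Calls over all genes rose with it, from 27 higher and 11 lower to 352 and 171, the latter 1.22% of 14073 genes. Reads of Hdac1 and Cdk2ap1 are uncertain, since copies of 99.4% identity over 1444 and 1299 bases (Gm10093 and Gm12184) are annotated elsewhere in the genome.

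The other NuRD positions were close to 0. The ATPase genes Chd3 and Chd4 had log2 fold changes of -0.12 and -0.06 in cortex and of -0.04 and -0.06 in neurons. For Chd4, the CHD4 remodeller at the core of NuRD, the 95% interval was -0.20 to 0.07 in cortex and -0.17 to 0.06 in neurons. Hdac2, at 236 ± 3.93 RPKM (SD, n = 3) in control cortex and 228 ± 15.1 RPKM (SD, n = 5) in Phf6 -/Y cortex, had a log2 fold change of -0.05 (SE 0.07, FDR = 0.853). The histone chaperone genes Rbbp4 and Rbbp7 were at -0.11 and -0.05 in cortex and at 0.01 and 0.02 in neurons.

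**Figure D3:**
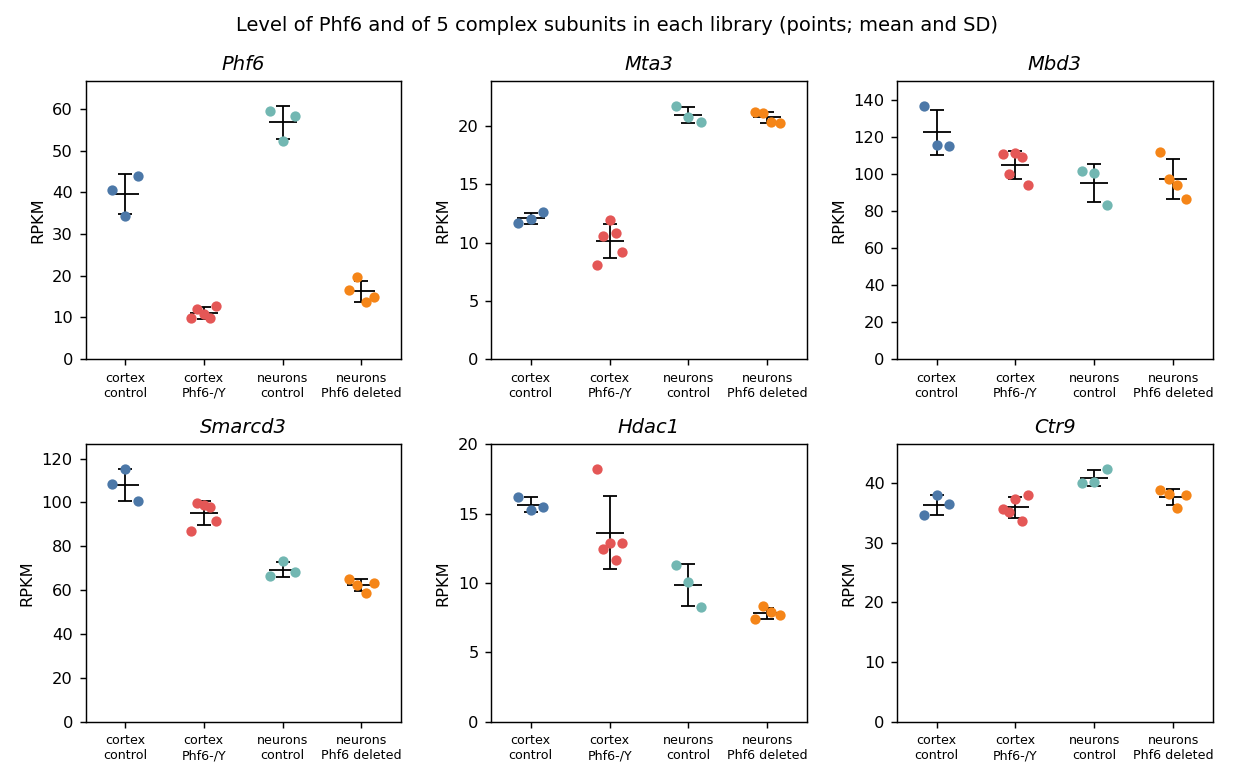
RPKM (vertical axis, from 0) of Phf6 and of Mta3, Mbd3, Smarcd3, Hdac1 and Ctr9 in each library, by group (horizontal axis), with mean and SD as bars. The Phf6 points of deleted libraries lie far below those of controls, and the points of the 5 subunits lie close together or overlap between genotypes.

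All 6 PAF1 genes had a fitted difference below 0 in Phf6 -/Y cortex, from -0.09 for Wdr61 to -0.02 for Paf1, and none passed. Of all genes, 50.6% lay below 0. Without cortex control replicate 2, 4 of the 6 were below 0, and 5 were without control replicate 3 or without deleted replicate 4. Leo1 and Wdr61, the members of lowest p in cortex, were at -0.09 (SE 0.08, FDR = 0.758) and -0.09 (SE 0.07, FDR = 0.724). In neurons 4 of 6 were below 0, where 49.7% of all genes were. Ctr9, the scaffold of the complex, was at 40.1, 40.2 and 42.4 RPKM in control and 38.9, 38.1, 35.8 and 38.0 RPKM in deleted cultures. The groups did not overlap. The log2 fold change of Ctr9 was -0.13 (SE 0.06, FDR = 0.439) in neurons and -0.03 (SE 0.07, FDR = 0.923) in cortex. Cdc73 had the highest difference of the complex in neurons, 0.16 (SE 0.09, FDR = 0.587), where its values in deleted cultures were 13.4, 17.4, 15.0 and 14.6 RPKM and in controls 14.5, 12.7 and 15.0 RPKM.

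The 26 BAF genes fell on both sides of 0, with 15 below in cortex and 10 in neurons, and medians of -0.02 and 0.01. Of all genes, 50.6% in cortex and 49.7% in neurons were below 0. Smarcd3 encodes BAF60C, a subunit through which tissue-specific factors bind the complex, and it had the lowest p of BAF in both tissues. It was at 108, 115 and 100.4 RPKM in control cortices and at 87.1, 99.8, 99.0, 97.9 and 91.7 RPKM in Phf6 -/Y cortices. In neurons it was at 66.5, 73.1 and 68.2 RPKM in controls and 65.1, 62.3, 58.8 and 63.1 RPKM in deleted cultures. The groups did not overlap in either tissue, with log2 fold changes of -0.20 (SE 0.07, FDR = 0.284) and -0.17 (SE 0.07, FDR = 0.360). Without Phf6 -/Y replicate 1, and so without litter 3 in the genotype estimate, the FDR of Smarcd3 in cortex was 0.645. On the opposite strand Smarcd3 overlaps Chpf2. Pbrm1, the BAF180 subunit of the PBAF form, reached the highest value in cortex, 0.15 (SE 0.07, FDR = 0.474), at 25.8, 26.9 and 31.1 RPKM in controls and 31.8, 27.5, 30.1, 31.5 and 35.4 RPKM in Phf6 -/Y samples, and it overlaps Gnl3 and Smim4.

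The subunits exchanged during neuronal differentiation and the ATPase genes did not pass by genotype. Actl6b, which encodes the neuronal BAF53B, was at 0.05 (SE 0.07, FDR = 0.843) in cortex and 0.10 (SE 0.06, FDR = 0.609) in neurons. Its progenitor paralogue Actl6a was at -0.12 (SE 0.06, FDR = 0.566) and -0.07 (SE 0.08, FDR = 0.822). Ss18 and Ss18l1 were at 0.07 and 0.12 in cortex and at -0.03 and 0.05 in neurons. The BAF45 genes Phf10, Dpf1, Dpf2 and Dpf3 were at 0.03, -0.12, 0.05 and 0.03 in cortex and at 0.00, 0.02, 0.00 and -0.11 in neurons. For the ATPase genes the 95% interval in neurons was -0.08 to 0.16 for Smarca2 (BRM) and -0.09 to 0.13 for Smarca4 (BRG1). The widest interval was that of Dpf3, the member of lowest level, -0.38 to 0.43 in cortex and -0.52 to 0.30 in neurons.

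Litters 1 to 6 held both genotypes, and in each the mean log2 level of the deleted samples was set against that of the control. It was lower in all 6 for 4 of 47 subunits, Chd4, Mta3, Cdk2ap1 and Smarcd3, where 3.65% of 14997 genes were. For Arid2, which encodes a DNA-binding subunit of PBAF, it was higher in all 6, as for 3.87% of all genes. For Smarcd3 the log2 differences were -0.08, -0.21 and -0.31 in litters 1 to 3 and -0.09, -0.31 and -0.11 in litters 4 to 6. For Arid2 they were 0.06, 0.04 and 0.01 in litters 1 to 3 and 0.04, 0.12 and 0.01 in litters 4 to 6. None of the 5 genes passed the test by genotype. The difference between the genotype effects of the 2 tissues was tested itself, and 0.0133% of 14997 genes passed, none of them a member. The lowest p was that of Mta3, with a difference of 0.28 (SE 0.13, FDR = 0.955, edgeR over all genes). It was the 1 subunit of 47 with an unadjusted p below 0.05, which 5.19% of all genes reached. DESeq2 and limma-trend called no subunit either, with 0 and 1 at an unadjusted p below 0.05. For Phf6 the difference between tissues was 0.03, with a 95% interval of -0.30 to 0.36.

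Genes of the same chromatin pathways were also counted, 64 in 6 lists. In cortex none of the 64 passed by genotype with edgeR, DESeq2 or limma-trend, where 0.387% of all genes did with edgeR. An unadjusted p below 0.05 was reached by 5, 6 and 5 of them, where 10.4% of all genes reached it with edgeR. In neurons 1 of 63 tested passed with each tool, where 0.273% of all genes did with edgeR. The counts at an unadjusted p below 0.05 were 8, 5 and 8 there, where 10.3% of all genes reached it with edgeR. The gene that passed was Zmynd8, which encodes a bromodomain protein that binds NuRD. It was at 18.7, 19.5 and 20.5 RPKM in control and 15.48, 14.3, 14.1 and 15.8 RPKM in deleted cultures, so that every deleted culture was below every control. The log2 fold change of Zmynd8 was -0.41 (SE 0.06, FDR = 0.00941) in neurons and -0.11 (SE 0.06, FDR = 0.553) in cortex, and the difference between tissues was -0.30 (SE 0.08, FDR = 0.623). The neuron call of Zmynd8 was lost without the litter term (FDR = 0.292, edgeR), with a replicate block in place of litter (FDR = 0.317), without control replicate 2 (FDR = 0.134) and without deleted replicate 3 (FDR = 0.0895), both of litter 5, with the log2 fold change between -0.38 and -0.43 over the alternatives. Its cortex levels were 29.3, 29.6 and 27.6 RPKM in controls and 27.3, 27.1, 27.8, 26.1 and 25.2 RPKM in Phf6 -/Y samples. In the other lists the gene of lowest p in neurons was Baz1a of ISWI at -0.42 (SE 0.10, FDR = 0.135), Sap30 of SIN3-HDAC at -0.36 (SE 0.10, FDR = 0.200), Hmg20b of CoREST at -0.38 (SE 0.11, FDR = 0.197), Supt5 of the elongation factors at -0.12 (SE 0.06, FDR = 0.50) and Bcl11a of the BAF-associated genes at 0.12 (SE 0.06, FDR = 0.53). In cortex they were Baz1a at -0.25 (SE 0.08, FDR = 0.281), Sap30 at -0.20 (SE 0.08, FDR = 0.380), Rcor2 at -0.20 (SE 0.06, FDR = 0.275), Nelfcd at -0.18 (SE 0.07, FDR = 0.356) and Bicral at 0.11 (SE 0.08, FDR = 0.678).

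Control neurons differed from control cortex in many members. Culture, stage, litter and the NesCre transgene differ with tissue in these samples and cannot be told apart. Of 14316 genes tested, 51.1% passed, 24.7% higher and 26.4% lower in neurons. Among the members 24 of 48 passed, 9 higher and 15 lower, a share near that of all genes. Without the trimmed mean of M-values (TMM) scaling, on library totals, 5 were higher and 22 lower, so that the share of calls that were higher went from 37.5% to 18.5%, and the median of all genes went from -0.03 to -0.17. None of the 24 changed sign under the 14 alternatives. Levels did not overlap between the tissues for 11 of 47 subunits that were higher and 16 that were lower in neurons, against 28.0% and 31.3% of all genes. The markers of radial glia and dividing cells fell with these subunits, 8 of 8 passing in each list, and 7 of 8 neuronal markers rose. Markers of other cells fell too: 6 of 6 of the ganglionic eminence (Dlx1, Gad1 and others), 6 of 6 of endothelium, 4 of 5 of oligodendrocyte precursors and 4 of 6 of microglia passed. Of 6 dorsal telencephalon markers, 2 passed higher and 3 lower. Their part in the subunit differences was not tested.

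Phf6 itself was higher in control neurons, by 0.52 (SE 0.10, FDR = 0.000589) on the log2 scale, with levels that did not overlap those of control cortices. In NuRD, 4 of 15 genes were lower in neurons and 3 higher, where 26.4% and 24.7% of all genes were. Chd4 was at 119, 112 and 108 RPKM in control cortices and 86.6, 74.0 and 80.2 RPKM in control cultures, a log2 fold change of -0.49 (SE 0.08, FDR = 0.000213). Hdac1 was at 15.7 ± 0.507 RPKM (SD, n = 3) and 9.90 ± 1.51 RPKM (SD, n = 3), a log2 fold change of -0.67 (SE 0.13, FDR = 0.000836), and Mbd2 and Mbd3 were also lower, at -0.44 and -0.37, called in 12 and 13 of the 14 alternatives. Mta3 went the other way, from 11.7, 12.03 and 12.6 RPKM in cortex to 21.7, 20.8 and 20.4 RPKM in neurons, 0.79 (SE 0.09, FDR = 1.26e-05). With it rose Gatad2b, which links the deacetylase and remodelling parts of NuRD, at 0.46 (SE 0.09, FDR = 0.000754), and Hdac2 at 0.27 (SE 0.08, FDR = 0.00924). The Hdac2 call was lost on library totals, with an FDR of 0.170. Chd3 and Chd5 did not pass, at -0.14 and 0.00, though Chd3 did on library totals (-0.28, FDR = 0.00706, edgeR). No PAF1 gene passed with TMM in the controls, and their fitted differences lay between -0.15 for Cdc73 and 0.16 for Ctr9. Under other settings Cdc73 passed on library totals (-0.29, FDR = 0.0369, edgeR), Ctr9 in all libraries with litter as a random block (0.12, FDR = 0.0393) and Leo1 in the deleted libraries (0.17, FDR = 0.0444).

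In BAF 16 of 26 genes passed, 5 higher and 11 lower in neurons, where 51.1% of all genes passed, 24.7% higher and 26.4% lower. At the SS18 position the paralogues went in opposite directions. Ss18l1, which encodes CREST, was at 26.6, 24.7 and 26.8 RPKM in cortex and 41.3, 43.5 and 44.7 RPKM in neurons, 0.73 (SE 0.08, FDR = 8.13e-06). Ss18 was at 22.9, 20.1 and 22.7 RPKM in cortex and 16.2, 10.9 and 11.8 RPKM in neurons, -0.76 (SE 0.14, FDR = 0.000600). The cultures did not overlap the cortices for either gene. A copy of Ss18 with 97.8% identity over 1161 bases (Gm1826) makes its level uncertain.

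At the ATPase position, Smarca2 was at 33.8, 42.4 and 36.7 RPKM in cortex and 53.6, 53.1 and 59.3 RPKM in neurons, 0.55 (SE 0.09, FDR = 0.000256). Smarca4 was at 151, 141 and 138 RPKM in cortex and 101, 102 and 108 RPKM in neurons, -0.48 (SE 0.07, FDR = 0.000148). Smarca2 RNA was thus higher and Smarca4 RNA lower in the cultures, while Smarca4 stayed the more abundant of the pair. At the BAF53 position Actl6a fell, from 55.6, 46.1 and 49.8 to 31.9, 34.9 and 28.7 RPKM, -0.67 (SE 0.10, FDR = 0.000113). Actl6b did not pass, at 77.8, 74.2 and 72.9 RPKM in cortex and 78.3, 84.0 and 78.3 RPKM in neurons, 0.09 (SE 0.08, FDR = 0.348), and on library totals its sign turned to -0.04. Actl6a overlaps Mrpl47 on the opposite strand.

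At the BAF45 position Dpf2 fell from 44.3, 36.9 and 39.0 to 28.4, 29.4 and 27.3 RPKM, -0.50 (SE 0.09, FDR = 0.000470). Dpf1, the BAF45B gene of neurons, rose from 71.9, 82.9 and 70.1 to 83.2, 101 and 97.7 RPKM, 0.32 (SE 0.10, FDR = 0.0124), and Phf10, which encodes the progenitor subunit BAF45A, rose too, 0.34 (SE 0.09, FDR = 0.00791). The increases of Dpf1 and Phf10 did not pass on library totals. Dpf3 did not pass, 0.11 (SE 0.21, FDR = 0.676). Among other BAF genes, Smarcd3 and Smarcd1 were lower, -0.64 (SE 0.08, FDR = 3.32e-05) and -0.41 (SE 0.09, FDR = 0.00157), and so were Arid1a, -0.53 (SE 0.11, FDR = 0.00116), Bcl7c, Brd7, Arid1b and Bcl7a. Of 14 alternatives, Bcl7c was called in 12, Brd7 in 11, Bcl7a in 10 and Arid1b in 8. Arid2 was higher, 0.26 (SE 0.08, FDR = 0.0141), but did not pass on library totals (0.12, FDR = 0.226), without cortex control replicate 2 or without neuron control replicate 1. The core genes Smarcb1, Smarce1, Smarcc1 and Smarcc2 did not pass, with differences from -0.12 to -0.03. On library totals Smarcb1 (-0.26, FDR = 0.0238, edgeR) and Smarce1 (-0.26, FDR = 0.0239) did. Smarce1 also passed in the deleted libraries (-0.17, FDR = 0.0471, edgeR). A copy of Smarce1 with 98.9% identity over 1233 bases (Gm8494) makes its level uncertain, and Smarcc1, Bcl7c and Actl6a have copies too.

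**Figure D4:**
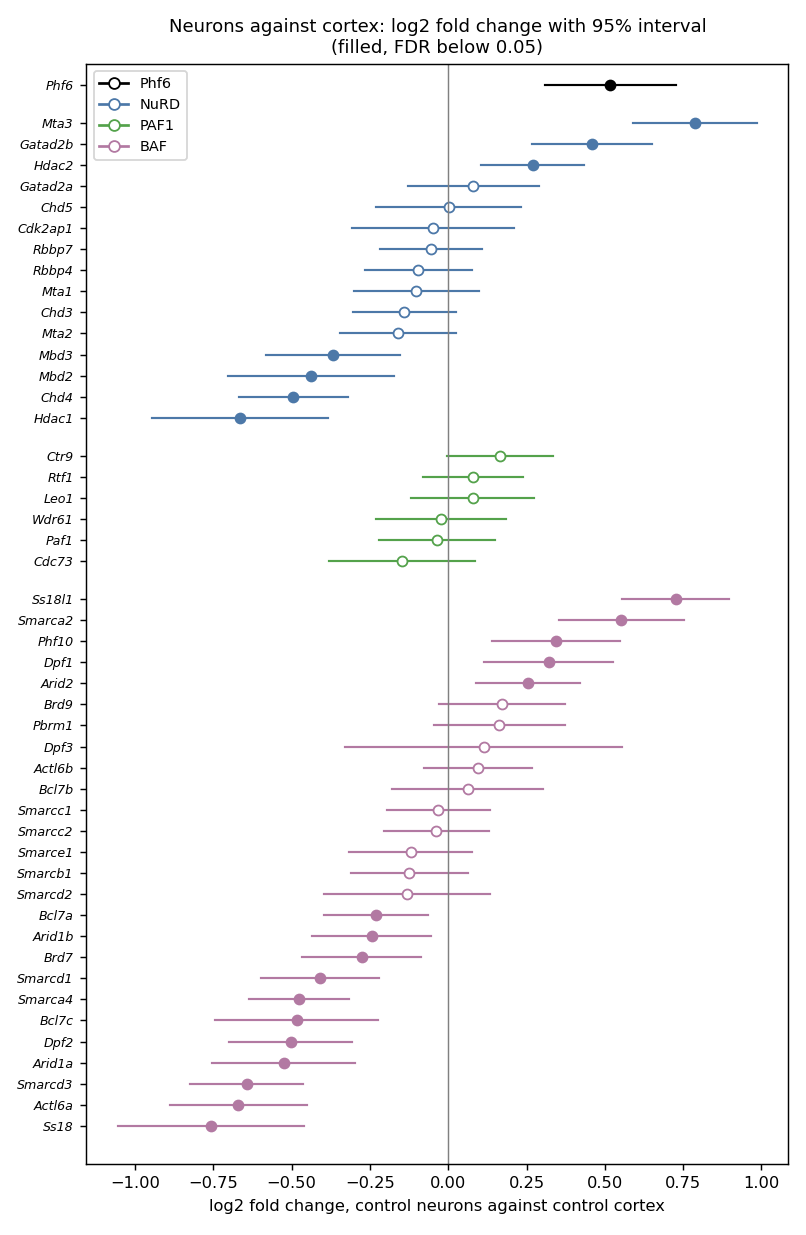
Fitted log2 fold change (horizontal axis) of control neurons against control cortex for the 48 members with 95% intervals as lines, ordered within Phf6, NuRD, PAF1 and BAF, filled where the FDR was below 0.05. Filled points lie on both sides of 0 in NuRD (3 higher, 4 lower) and BAF (5 higher, 11 lower), and the 6 PAF1 points are open. Of all genes tested, 24.7% were higher and 26.4% lower.

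Shares of the per-length level within a position do not depend on the scaling of the libraries. Ss18l1 made up 54.3 ± 0.729% (SD, n = 3) of the summed Ss18 and Ss18l1 level in control cortex and 76.9 ± 4.48% (SD, n = 3) in control neurons. In Phf6-deleted samples it was 55.6 ± 3.00% (SD, n = 5) in cortex and 77.6 ± 2.01% (SD, n = 4) in neurons. Smarca2 made up 20.8 ± 2.41% of the ATPase pair in control cortex and 34.8 ± 0.617% in control neurons, against 21.0 ± 2.82% and 34.6 ± 1.30% in deleted samples. For Ss18l1 and Smarca2, all 7 cultures lay above all 8 cortices.

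Actl6b made up 59.8 ± 1.69% of the BAF53 pair in control cortex and 63.1 ± 3.58% in Phf6 -/Y cortex, and 71.6 ± 1.36% and 73.9 ± 2.34% in control and deleted neurons. The single libraries were at 58.3, 61.7 and 59.4% in control and 58.5, 67.1, 65.7, 63.8 and 60.5% in Phf6 -/Y cortices, which overlap. They were at 71.1, 70.7 and 73.2% in control and 73.7, 70.9, 74.4 and 76.6% in deleted cultures, which overlap too. The gain of share in neurons thus came with a lower Actl6a and not with an Actl6b that passed the test. Dpf2 went from 24.7 ± 2.43% to 15.7 ± 1.40% of the BAF45 genes and Arid1a from 59.9 ± 2.39% to 49.8 ± 1.35% of the ARID genes in controls. The share of Smarcc1 against Smarcc2 was 32.9 ± 1.09% in control cortex and 32.9 ± 1.74% in control neurons.

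In NuRD, Mta3 held 7.75 ± 0.714% of the MTA genes in control cortex and 13.7 ± 0.687% in control neurons. Chd4 held 35.8 ± 1.25% of the CHD genes and 30.2 ± 2.15%, with Chd3 the most abundant CHD gene throughout. Hdac1 held 6.23 ± 0.242% of the HDAC pair and 3.38 ± 0.711%, values that its near-identical copy makes uncertain. Mbd3 held 90.0 ± 0.808% and 90.4 ± 1.49% of the MBD pair, and Rbbp4 62.8 ± 1.61% and 62.2 ± 1.77% of the RBBP pair. In deleted samples Mta3 was at 6.96 ± 0.928% in Phf6 -/Y cortex and 13.8 ± 0.323% in deleted neurons.

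**Figure D5:**
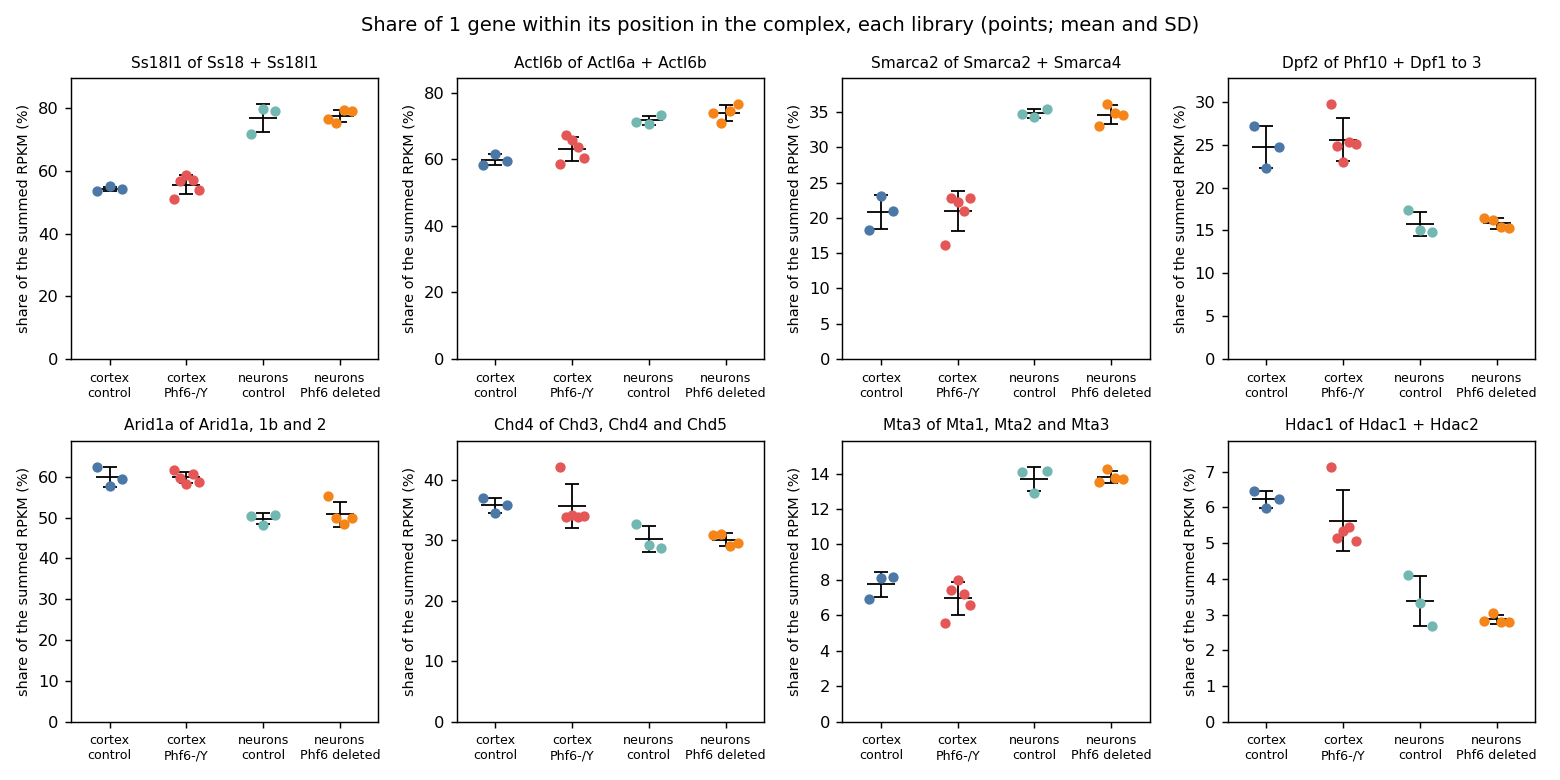
Share of 1 gene in the summed RPKM of its position (vertical axis, percent, from 0) in each library, by group (horizontal axis), with mean and SD as bars, for 8 genes. Ss18l1, Actl6b, Smarca2 and Mta3 hold higher shares in the neuron groups than in the cortex groups, and Dpf2, Arid1a, Chd4 and Hdac1 lower shares, with the genotypes close together within a tissue.

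The same tissue difference was then read in the deleted samples, which share no library with the controls but come from the same litters, litter 7 apart. With the 9 deleted libraries, 12 members of 48 were higher and 12 lower, where 28.0% and 31.1% of all 14412 genes were. This fit had no litter term, and most of its cortices were littermates of another, in litter 1 or litter 2, yet counted as separate samples. All 9 members called higher in the controls were called higher again, and of the 15 called lower 10 were called again, the exceptions being Mbd2, Mbd3, Arid1b, Bcl7a and Bcl7c. The log2 fold change in deleted samples was 0.63 for Ss18l1, -0.83 for Ss18, 0.64 for Smarca2, -0.34 for Smarca4, -0.59 for Actl6a and 1.03 for Mta3. For Mbd3 it was -0.12. Smarcd3 was at -0.61 and Arid1a at -0.37.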

How the data were processed

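RNA from 15 samples was sequenced as paired-end reads. The authors aligned the reads to mm10 with Rsubread, counted them per Entrez gene with featureCounts, and deposited raw counts per gene with a gene length. The strand setting of the counting was not given in the sources used here. Of 27179 rows, 1029 without an identifier (0.349 to 0.605% of reads) were left out, as were 875 unmatched identifiers, pseudogenes, predicted and rRNA genes, leaving 23128 genes.

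The counts were fitted over all genes with edgeR 4.0.16 (TMM, filterByExpr, robust quasi-likelihood test, Benjamini-Hochberg FDR below 0.05) in R 4.3.3, following the study in fitting each tissue apart with litter as a term. Neurons were compared with cortex in the 6 controls without litter, which is nested in tissue. The same comparison in the deleted libraries also had no litter term, though some of its cortices were littermates. Genotype by tissue used all 15 libraries and 7 litters. DESeq2 1.42.0 and limma-trend (limma 3.58.1), library totals, no low-count filter, other litter terms and leaving out each library were alternatives. Scripts were tested on simulated data. RPKM used the deposited lengths and TMM over all libraries, and counts of genes without overlap used 14997 genes. Near-identical copies were found with BLAST+ 2.17.0.

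The members and lists were chosen with earlier results of these data known. Genes were named by rule: Phf6, members that passed by genotype, the 2 of lowest p per complex and genotype comparison, the 4 largest changes per complex between tissues, and every gene of the BAF53, BAF45, SS18, CHD and ATPase positions. Others named (Hdac2, Rbbp4, Rbbp7, Mbd2, Gatad2b, Arid2, the core BAF genes and those of the shares) were chosen after their values were seen. Of the other lists the gene of lowest p was named. Replicates are separate samples by the labels, some sharing a litter. With litter in the fit, p-values by genotype rest on the spread left within litters. Those between tissues rest on the spread between samples, and both may be partly technical. The deleted culture of litter 7, which has no control, adds nothing to the genotype estimate in neurons. Same-numbered samples did not deviate together in every pair (correlations from -0.20 to 0.23 in cortex and from -0.15 to 0.22 in neurons), so numbers were not taken as pairs.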

Additional observations from a re-analysis of the deposited data

Results flagged for a closer look

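Of 56 groups of 4 or 5 libraries, 3 held a library far from the others by Dixon's test, and chance gives about 1 in 20. Hdac1 was at 18.2 RPKM in Phf6 -/Y cortex replicate 1, where the other 4 were at 11.7 to 12.9 RPKM. Smarca2 was at 27.5 RPKM in the same cortex, where the other 4 were at 38.0 to 41.4 RPKM. This cortex also had the lowest dorsal telencephalon and neuronal marker sums of the 8, 461 and 1646 RPKM, and the part of these in both values was not tested. Without it, and so without litter 3 in the genotype estimate, Phf6 remained the 1 member called by genotype in cortex. Of 47 subunits 31, and 13 of 15 in NuRD, had a difference below 0, as many as without control replicate 1 of that litter. The summed NuRD level was 1116 RPKM in Phf6-deleted neuron replicate 1, the culture of litter 7, where the other 3 were at 1044 to 1055 RPKM.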

How the results depend on the processing

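Phf6 was the 1 member called by genotype in each tissue under all alternatives but 1: leaving out single libraries gave 1 member lower in cortex and 1 to 2 in neurons, the second being Cdk2ap1 without control replicate 3 (-0.28, FDR = 0.0348, edgeR). Between neurons and cortex, leaving out single controls gave 8 to 10 members higher and 11 to 15 lower. On library totals 5 were higher, and Actl6b turned to -0.045, Chd5 to -0.14 and Dpf3 to -0.025, none of which passed. Leaving out single controls gave -0.11 to 0.12 for Chd5, lowest without cortex control replicate 3, and -0.051 to 0.24 for Dpf3, lowest without neuron control replicate 2. The causes were not tested. With a replicate block, 0 members were higher and 1 lower by genotype in each tissue, 0 and 0 by the interaction, and 9 and 15 between tissues, so it changed no count of members. Over all genes, cortex had 47 higher and 10 lower, but 156 and 43 by DESeq2, 95 and 19 without a filter, 70 and 5 with the replicate block and 0 and 1 without litter. In neurons 27 and 11 became 46 and 27 on library totals, 47 and 15 by DESeq2, 186 and 111 without a filter, 3 and 2 with the replicate block and 0 and 1 without litter, and for the interaction 1 and 1 became 2 and 10 by DESeq2. Leaving out single libraries gave 6 to 68 higher and 1 to 13 lower in cortex (6 and 1 without control replicate 2), and 12 to 352 and 4 to 171 in neurons (352 and 171 without control replicate 3, 257 and 127 without deleted replicate 4, 12 and 4 without control replicate 2). Depth was not limiting for most members, but Dpf3 had the fewest reads and the widest intervals.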
